A study of Arabidopsis thaliana with 6 samples.

Results

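The clade A type 2C protein phosphatases (PP2C) of Arabidopsis thaliana are the co-receptors and brakes of abscisic acid (ABA) signalling. They were chosen by locus code, 9 genes with 1 probe set each, of 22746 probe sets on the ATH1 array once 62 controls were set aside. The genes are ABI1 (AT4G26080), ABI2 (AT5G57050), HAB1 (AT1G72770), HAB2 (AT1G17550), AHG1 (AT5G51760), AHG3 (AT3G11410), HAI1 (AT5G59220), HAI2 (AT1G07430) and HAI3 (AT2G29380). Without ABA these phosphatases hold SnRK2 kinases inactive by removing phosphate from them. ABA-bound receptors of the PYR/PYL family block the phosphatases, and the released kinases act on transcription factors, ion channels and oxidases. Many clade A genes are themselves known to be induced by ABA, which makes them a negative feedback on the pathway. A link to chromatin is also known in this plant: HAB1 binds SWI3B, a core subunit of SWI/SNF chromatin remodelling complexes, and AHG3 (also called PP2CA) acts on the phosphorylation of BRAHMA (BRM), the ATPase of such complexes.

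The samples were leaves of 2-week-old seedlings from plates with 1.5% sucrose, under 16 h of light at 22 °C and 8 h of dark at 20 °C, and all had been given 3 days of vernalization. The mutant group, essp3, carries a BRM lesion that the labels name in 2 ways (brm5 and brm-6). The control group, called wild type, carries the reporter ProβCG:GUS, a seed storage protein promoter driving β-glucuronidase. Whether the mutant also carries that reporter is not given in the labels used here. There were 3 arrays of each group, described as biological replicates, with nothing on whether they came from separate plates or pools of plants. The comparison asks which transcripts differ in leaves when BRM is impaired.

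Values are MAS5 signals on a linear scale, scaled by the authors so that every array averaged 1000. A signal comes with a detection call, and 13626 probe sets with 3 or more Present calls among the 6 arrays were tested. The test was limma's, its p-values were adjusted by Benjamini-Hochberg over these probe sets, and "rose" and "fell" mean an adjusted p under 0.05. Of these probe sets, 28.4% were called, 14.4% higher and 13.9% lower in the mutant, and the median log2 fold change was -0.01. The array names put the groups in separate runs, so run and genotype cannot be told apart. A 25S ribosomal RNA control read 371 to 483 on mutant arrays and 4149 to 7797 on wild-type arrays, and its part in the results was not tested. As for the leaf label, the Rubisco small subunit gene RBCS1A, on a shared probe set, read 51718 to 65052, while the shoot meristem genes STM, WUS and KNAT1 had no Present call. Rubisco activase, RCA, the other matched leaf marker, read 43499 to 64866. Of the root markers, PYK10 (2253 to 3229) and SCR (492 to 828) were called Present on all 6 arrays.

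Among the clade A genes, HAB1 transcript rose in mutant leaves, and the differences in ABI1 (lower mean), AHG3 and HAB2 did not pass the threshold. These 4 genes were called Present on all 6 arrays. ABI2, AHG1, HAI2 and HAI3 had no Present call, and HAI1 had 1. The count of 1 rise and 0 falls among 4 tested members is 25% called, beside 28.4% of all tested probe sets, so the share of changed members was near the background. At an unadjusted p under 0.05 the limma fit gave 2 of the 4, HAB1 and ABI1, beside 39.3% of all tested probe sets. The median log2 fold change of the 4 was 0.22.

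**Figure D1:**
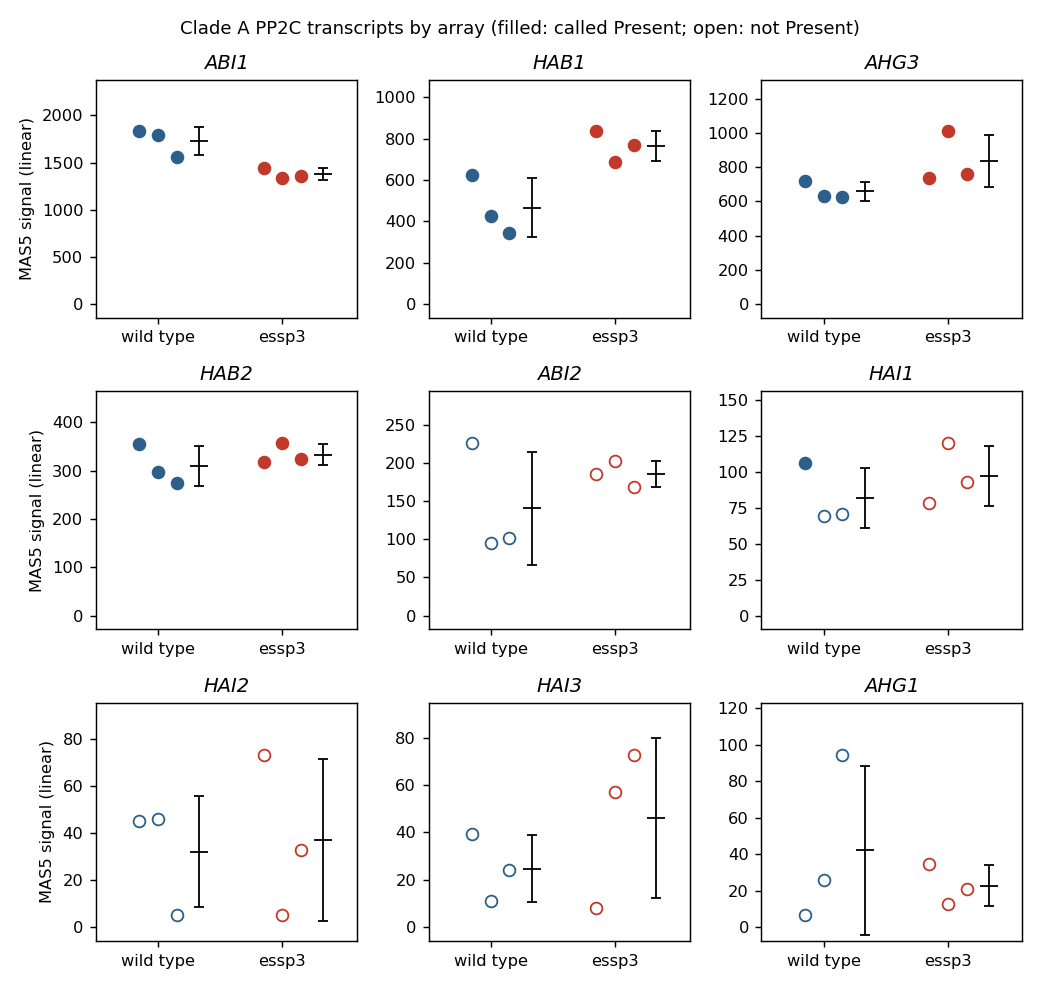
MAS5 signal (linear scale, one axis per gene) of the 9 clade A genes on the 3 wild-type (blue) and 3 essp3 (red) arrays; filled points were called Present, open points were not, and black marks give mean ± SD. HAB1 is higher and ABI1 lower on every mutant array, and ABI2, AHG1 and the HAI genes have mostly open points that overlap between groups.

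HAB1, a phosphatase that binds the ABA receptors and restrains SnRK2 kinases in vegetative tissue, read 835, 687 and 771 on mutant replicates 1, 2 and 3. On wild-type replicates 1, 2 and 3 it read 623, 427 and 346. All mutant arrays lay above all wild-type arrays, and wild-type replicate 1 was the closest to them. The group means were 764 ± 74.3 and 465 ± 142 (SD, n = 3). The log2 fold change was 0.76 (SE 0.20, limma adjusted p = 0.0123), a 1.69-fold rise with a 95% confidence interval of 1.25 to 2.27. Larger absolute changes were seen in 14.8% of all tested probe sets. The call ended without mutant replicate 1 (log2 fold change 0.69, adjusted p = 0.0509). It held in the other leave-one-out fits, where the log2 fold change ran from 0.56 to 0.99.

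HAB2, the closest relative of HAB1, read 317, 357 and 324 on the mutant arrays and 355, 298 and 275 on the wild-type arrays. The groups overlapped, at 333 ± 21.2 and 309 ± 40.9 (SD, n = 3). Its log2 fold change was 0.11 (SE 0.19, limma adjusted p = 0.691), and the interval of the fold ran from 0.820 to 1.42. The point value for HAB1, 1.69-fold, lies outside that interval, but the HAB1 interval of 1.25 to 2.27 overlaps it.

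ABI1, whose dominant mutation gave the ABA-insensitive phenotype that named the gene, read 1447, 1334 and 1357 on the mutant arrays. The wild-type arrays read 1830, 1795 and 1564. Every mutant array was below every wild-type array, with small spread in both groups (1379 ± 59.5 and 1730 ± 145; SD, n = 3). The log2 fold change was -0.32 (SE 0.13), a ratio of 0.799 with an interval of 0.660 to 0.967. With adjustment over all probe sets the limma p was 0.0758, so no change was called, although array weights gave an adjusted p of 0.0333 (log2 fold change -0.36). In the authors' deposited table, where p-values were not adjusted, ABI1 had a ratio of 0.797 (p = 0.0178) and HAB1 a ratio of 1.64 (p = 0.0321). That table's p was under 0.05 for 32.8% of the tested probe sets.

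AHG3, a phosphatase active in seeds and in guard cells, read 735, 1009 and 763 in the mutant and 722, 629 and 627 in wild type. The groups did not overlap, but mutant replicate 1 and wild-type replicate 1 were close. The log2 fold change was 0.33 (SE 0.16, limma adjusted p = 0.144), with an interval of 0.989 to 1.6 for the fold. Counting HAB1, ABI1 and AHG3, 3 of 4 tested members had groups that did not overlap, 2 with the mutant above and 1 with it below. Over all tested probe sets 42.7% did not overlap.

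ABI2, the nearest relative of ABI1, was called Absent on all 6 arrays although its signals were not among the lowest. It read 185, 203 and 169 in the mutant and 226, 95.1 and 101 in wild type. The 3 mutant values were close together, wild-type replicate 1 lay above them and the other wild-type arrays below. Among 1643 probe sets with a mean signal within 1.25-fold of that of ABI2, only 7.30% lacked a Present call on every array. A MAS5 call rests on the contrast between matched and mismatched probes, so a signal of this size without a call gives no level for ABI2.

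The HAI genes, named as highly ABA-induced, were at the edge of detection or below it. HAI1 read 78.4, 120 and 92.9 in the mutant and 106, 69.5 and 70.4 in wild type, with its single Present call on wild-type replicate 1. HAI2 read 73.3, 4.96 and 32.8 against 45.1, 46.1 and 5.03. HAI3 read 7.99, 57.0 and 72.9 against 39.2, 11 and 24.1. For each of these genes the groups overlapped, and near HAI2 and HAI3 in mean signal over 91% of probe sets had no Present call (91.9% and 91.5%). Near HAI1 that share was 37.3%.

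AHG1, a phosphatase known for its role in seeds and for resisting inhibition by the ABA receptors, had no Present call either. It read 34.8, 12.4 and 21.0 in the mutant and 6.53, 25.6 and 94.5 in wild type, and wild-type replicate 3 held the highest value. Without the detection filter, all 5 of these genes entered the fit, and the limma adjusted p ran from 0.451 for ABI2 to 0.982 for HAI2. Because none was reliably detected, no direction or fold is given for ABI2, AHG1 or the HAI genes.

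The balance between detected members was also read within each array, where any scaling of the whole array cancels. The log2 ratio of ABI1 to HAB1 signal was 0.79, 0.96 and 0.82 on the mutant arrays and 1.56, 2.07 and 2.18 on the wild-type arrays. The ratio was thus lower by 1.08 log2 units in the mutant (0.86 ± 0.09 against 1.94 ± 0.33; SD, n = 3), and the groups did not overlap. The log2 ratio of HAB1 to HAB2 was 1.40, 0.94 and 1.25 in the mutant against 0.81, 0.52 and 0.33, higher by 0.64. The log2 ratio of ABI1 to AHG3 differed by -0.65 and that of ABI1 to HAB2 by -0.44. Of the 6 pairs, which are built from only 4 genes, 5 had groups that did not overlap, beside 42.9% of all pairs of tested probe sets. For ABI1 with HAB1 and ABI1 with AHG3 this was fixed in advance, since each gene alone was already apart, in opposite directions. The pair count therefore restates the values of the single genes and is no further result. The 2-sided exact permutation p was 0.1 for the 5 pairs without overlap, the smallest that 3 against 3 arrays can give. It was 0.12 after Benjamini-Hochberg adjustment over the 6 pairs. HAB1 against AHG3 overlapped (0.43, exact p = 0.2). Only changes of a ratio are read here, since the levels of different probe sets are not comparable.

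**Figure D2:**
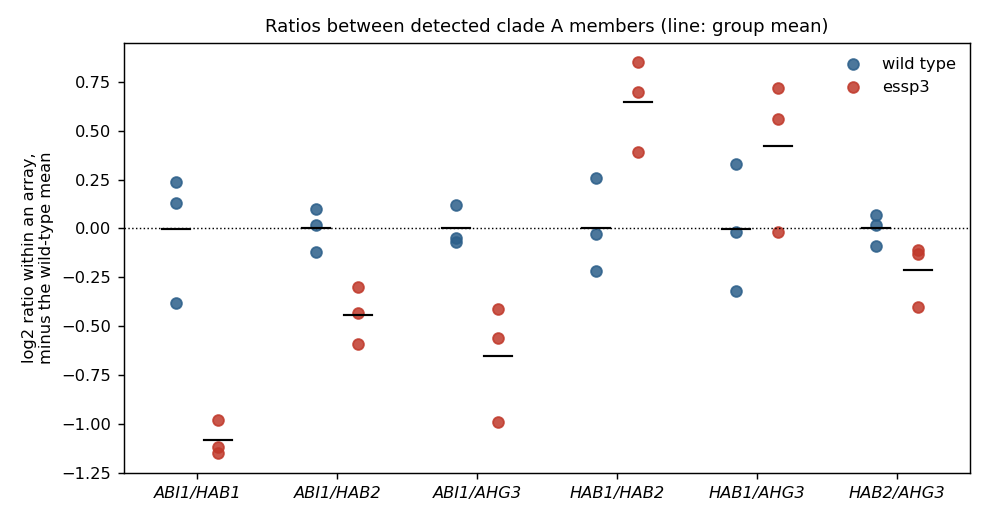
Within-array log2 ratio for each pair of the 4 detected clade A genes, minus the wild-type mean of that pair, with 1 point per array (blue wild type, red essp3) and a line at each group mean. The ABI1 to HAB1 ratio lies lowest in essp3, 1.08 below wild type, and HAB1/AHG3 is the pair whose groups overlap.

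The other PP2C genes of the array showed how HAB1 stood in the wider family. Of 58 further genes whose deposited title names a PP2C, 45 were tested, 3 rose and 4 fell (15.6% called, beside 28.4% of all tested probe sets). Their median log2 fold change was 0.03, and 11 had no Present call. The rises were AT2G30020, also named AP2C1, a phosphatase of stress-activated MAP kinases, on a probe set shared between transcripts (0.72, limma adjusted p = 0.0438), AT1G68410 (0.67, adjusted p = 0.00332) and AT3G16560 (0.50, adjusted p = 0.0338). HAB1, at 0.76, stood beside these rises among the 49 tested PP2C genes, and its order against AT2G30020 turned with the setting. AT2G30020 was above it with array weights (0.85 against 0.70), without mutant replicate 1 (0.74 against 0.69) and without wild-type replicate 3 (0.87 against 0.56). The 3 largest falls were PLL4 (-0.93, adjusted p = 0.00264) and PLL5 (-0.67, adjusted p = 0.0105), relatives of the stem cell regulator POLTERGEIST, and AT5G02760 (-0.84, adjusted p = 0.00122), a clade D PP2C also named APD7. The AT2G30020 call held in 1 of 6 leave-one-out fits, without wild-type replicate 3, and otherwise had an adjusted p of up to 0.168. AT3G16560 also held in 1 of 6, without wild-type replicate 1, with an adjusted p of up to 0.101 in the others.

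**Figure D3:**
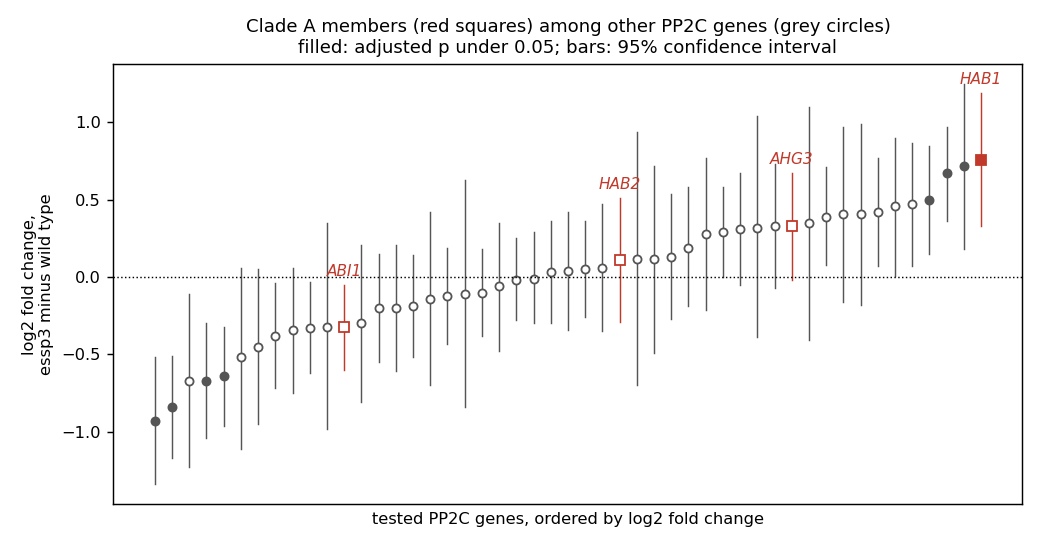
Log2 fold change (essp3 minus wild type) with 95% confidence interval for the 45 other tested PP2C genes (grey circles) and the 4 tested clade A genes (red squares), in rising order; filled symbols passed an adjusted p of 0.05. HAB1 is at the upper end at 0.76, and ABI1, HAB2 and AHG3 lie between the ends at -0.32, 0.11 and 0.33.

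Upstream of the phosphatases, transcripts of 2 ABA receptors fell and none rose among 9 tested of 14. That is 22.2% called, beside 28.4% of all tested probe sets, with a median log2 fold change of -0.13. PYL6 read 310, 476 and 564 in the mutant and 904, 953 and 1091 in wild type. Its log2 fold change was -1.17 (SE 0.20, limma adjusted p = 0.00077). PYL5 read 1617, 1640 and 1805 against 2358, 3007 and 3030, a log2 fold change of -0.72 (SE 0.13, adjusted p = 0.00138). For both receptors the groups were well apart. PYL2 (-0.62, adjusted p = 0.15) and PYL9 (0.38, adjusted p = 0.186) were not called, and PYL9 ran from 0.22 without wild-type replicate 3 (adjusted p = 0.485) to 0.61 without wild-type replicate 1 (adjusted p = 0.0281). PYL3 had no Present call, and 4 receptor genes had no matching probe set.

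The SnRK2 kinase family, which includes direct targets of clade A phosphatases, moved in both directions. Of 8 tested genes, 1 rose and 3 fell (50.0% called, beside 28.4% of all tested probe sets). The log2 fold change was below 0 in 7 of the 8, of which only 3 were called. The median over the 8 was -0.29, beside -0.01 over all tested probe sets. SNRK2.8, a kinase that responds only weakly to ABA, read 955, 806 and 1143 in the mutant and 248, 217 and 180 in wild type. That is a 4.5-fold rise (log2 fold change 2.17, SE 0.19, limma adjusted p = 3.2e-06). SNRK2.2, one of the strongly ABA-activated kinases, read 3127, 2886 and 3129 against 4795, 5756 and 5987, and fell by 0.85 on the log2 scale (SE 0.12, adjusted p = 0.000198). Its close partners SNRK2.3 (-0.21, adjusted p = 0.358) and SNRK2.6, the guard cell kinase also called OST1 (-0.18, adjusted p = 0.432), were not called. These 2 are given in addition to the genes the naming rule chose.

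SNRK2.10 and SNRK2.4, kinases activated by osmotic stress and not by ABA, each fell by 0.47 on the log2 scale (adjusted p = 0.0187 and 0.026). Each call was lost in 3 of 6 leave-one-out fits. SNRK2.10 lost it when mutant replicate 2, mutant replicate 3 or wild-type replicate 3 was left out (adjusted p = 0.0721, 0.0557 and 0.0709), and for SNRK2.4 the same happened when mutant replicate 2, mutant replicate 3 or wild-type replicate 1 was left out (0.068, 0.0847 and 0.0967). The related kinase genes SNRK2.1 (-0.24, adjusted p = 0.181) and SNRK2.5 (-0.34, adjusted p = 0.193) were not called, and SNRK2.7 and SNRK2.9 had no Present call.

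**Figure D4:**
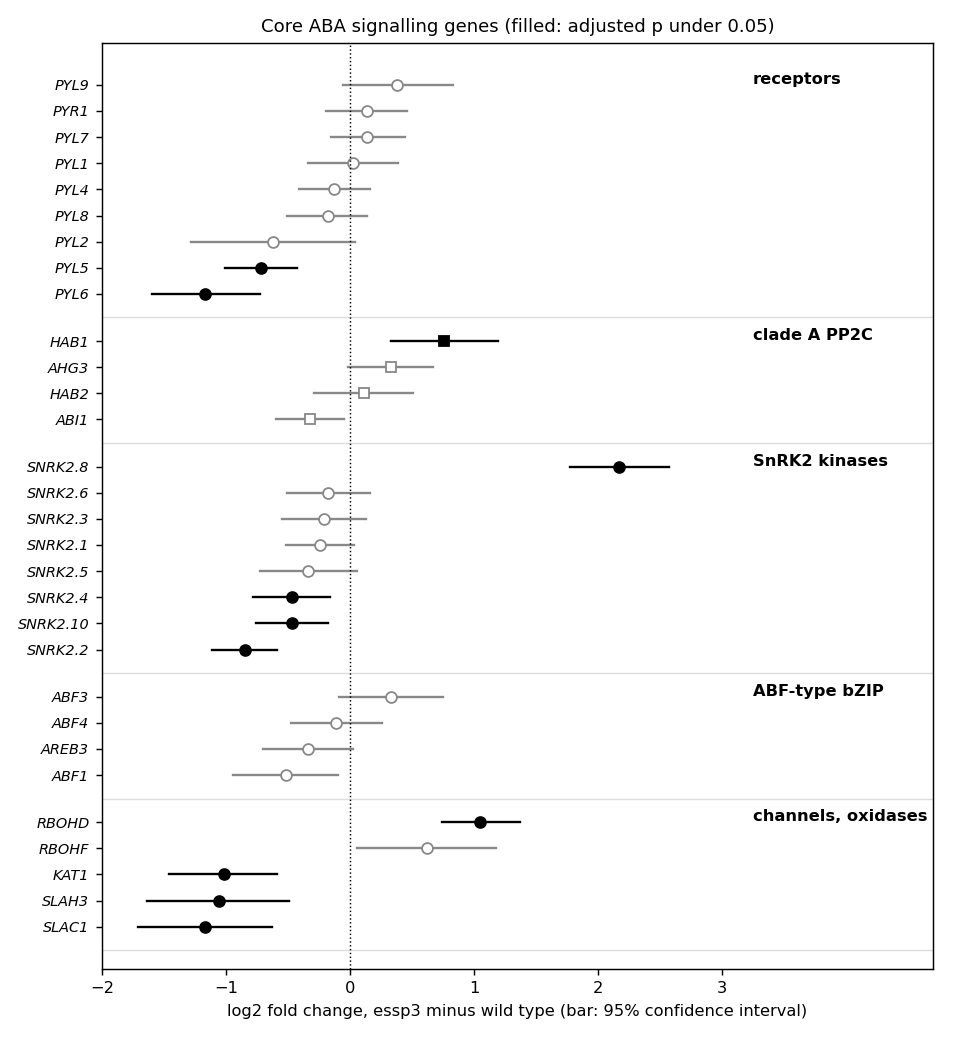
Log2 fold change (essp3 minus wild type) with 95% confidence interval for the tested genes of core ABA signalling, ordered from receptors to downstream targets; filled symbols passed an adjusted p of 0.05 and squares are clade A PP2C genes. SNRK2.8 stands out at 2.17, and PYL5, PYL6, SNRK2.2, SLAC1, SLAH3 and KAT1 lie clearly below 0.

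The ABF-type bZIP factors, which the kinases activate and which bind ABA-responsive promoters, showed no call among 4 tested of 8 genes by limma. At an unadjusted p under 0.05 there was 1 by limma (ABF1) and also 1 in the authors' deposited table (AREB3). Over all tested probe sets these shares were 28.4%, 39.3% and 32.8%. ABF1 read 532, 402 and 492 in the mutant and 594, 572 and 913 in wild type (log2 fold change -0.52, adjusted p = 0.0626). It passed without wild-type replicate 1 (-0.61, adjusted p = 0.0465) and with a replicate block (-0.52, adjusted p = 0.0484). Without wild-type replicate 3 it was -0.30 (adjusted p = 0.241). For AREB3 the log2 fold change was -0.34 (limma adjusted p = 0.154). ABI5, EEL and DPBF2, which act mainly in seeds, had no Present call.

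Downstream effectors in the plasma membrane also moved in both directions: of 5 tested channel and oxidase genes, 1 rose and 3 fell. That is 80.0% called, beside 28.4% of all tested probe sets, with a median log2 fold change of -1.02. SLAC1, the guard cell anion channel that SNRK2.6 opens and clade A phosphatases inhibit, read 150, 106 and 139 in the mutant and 351, 249 and 286 in wild type (log2 fold change -1.17, SE 0.25, limma adjusted p = 0.0037). Its homologue SLAH3 fell by 1.06 (adjusted p = 0.00922) and the inward potassium channel KAT1 by 1.02 (adjusted p = 0.00212) on the log2 scale. RBOHD, an NADPH oxidase that makes reactive oxygen in defence and stomatal responses, rose from 596 ± 78.0 to 1230 ± 38.4 (SD, n = 3; log2 fold change 1.05, adjusted p = 0.000146). RBOHF, the oxidase phosphorylated by SNRK2.6, had 0.62 (adjusted p = 0.0935).

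Part of the guard cell marker list, which holds SLAC1 and KAT1 too, was lower in the mutant. Of 6 guard cell markers 5 matched the array, and MYB60, SLAC1 and KAT1 fell (60.0% called, beside 28.4% of all tested probe sets). MYB60 fell from 958 ± 321 to 375 ± 51.0 (SD, n = 3, log2 fold change -1.31, limma adjusted p = 0.000438). FAMA, a regulator of guard cell fate, had -0.27 (adjusted p = 0.290) and the myrosinase gene TGG2, on a shared probe set, -0.04 (adjusted p = 0.870). The summed signal of the list, nearly all of it TGG2, was 19400 to 28396 on mutant arrays and 24032 to 27173 on wild-type arrays. In whole leaves, fewer cells of a type and less RNA per cell cannot be told apart, and the part of guard cells in the values of HAB1, ABI1 and AHG3 was not tested. Of 9 seed markers, 7 had no Present call, and SESA2 and SESA5 had 3 Present calls in the mutant against 0 in wild type, so they entered the test only through the mutant and their calls are not counted here. SESA5 read 178, 189 and 285 in the mutant and 15.7, 33.7 and 39.2 in wild type. The seed list had a summed signal of 458 to 779 in the mutant and 125 to 327 in wild type. Most of the gap between these sums lies in SESA2 and SESA5. Among the 7 others, the group mean was higher in the mutant for SESA1, SESA3, SESA4 and CRU2. It was lower for CRA1, CRU3 and OLEO1, and none of the 7 has a level without a Present call. Of the root markers, SCR, which is also active in leaf veins, rose (0.58, adjusted p = 0.00943), PYK10 had -0.29 (adjusted p = 0.103), RHD6 had no Present call and COBL9 had 1. The summed root marker signal was 3208 to 3466 and 3411 to 3891. The part of these cell types in the results was not tested.

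Proteins known to bind, modify or be acted on by clade A phosphatases showed no transcript call by limma: 0 of 6 tested genes, also at an unadjusted p under 0.05 and in the authors' deposited table. Over all tested probe sets these shares were 28.4%, 39.3% and 32.8%. BRM, the gene impaired in the mutant, read 788, 877 and 1087 against 833, 823 and 647 (log2 fold change 0.25, adjusted p = 0.278). The labels do not describe the lesion, so the BRM signal is no check of genotype. PUB12, a ubiquitin ligase that targets ABI1, had -0.30 (adjusted p = 0.431). SWI3B, the HAB1 partner, read 115, 241 and 383 in the mutant and 246, 266 and 295 in wild type, with an interval of -1.01 to 0.44 for the log2 fold change. SWI3B is named outside the rule.

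Genes commonly used as ABA response markers were mixed: of 13 tested of 20, 4 rose and 3 fell. That is 53.8% called, beside 28.4% of all tested probe sets, with a median log2 fold change of 0.43. A further 6 matched genes had no Present call: RD29B, COR15A, EM1, EM6, AFP1 and AFP3. The falls numbered 1 when mutant replicate 2, mutant replicate 3 or wild-type replicate 2 was left out. COR15B, for a cold-regulated chloroplast protein, had 2.43 (limma adjusted p = 7.2e-06), KIN1, a stress-responsive gene on a probe set shared between transcripts, 1.22 (adjusted p = 6.68e-05) and the dehydrin gene RAB18 0.86 (adjusted p = 0.0042). The NAC factor gene RD26 fell by 1.10 on the log2 scale (adjusted p = 0.00127). RAB18 read 550, 587 and 661 in the mutant and 391, 252 and 361 in wild type. The other calls were LTI30 upward (1.07, adjusted p = 0.00822) and ERD10 (-0.53, adjusted p = 0.0326) and HB12 (-0.65, adjusted p = 0.0158) downward. They were named after their values were seen. RD29A, a dehydration and cold gene, had 0.53 (adjusted p = 0.113), and leaving out replicate 3 of the mutant (0.74, adjusted p = 0.0486) or of wild type (0.72, adjusted p = 0.0456) brought it past the threshold. Without mutant replicate 1 it dropped to 0.24 (adjusted p = 0.455) and without wild-type replicate 2 to 0.39 (adjusted p = 0.32). HB7, a homeobox gene that activates clade A PP2C genes in response to ABA, had 0.68 (adjusted p = 0.129).

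Genes that set the amount of ABA rose more often than they fell: of 6 tested of 10, 4 rose and none fell. That is 66.7% called, beside 28.4% of all tested probe sets, with a median log2 fold change of 0.62. The list pools genes of synthesis, release and breakdown, so this count gives no direction for ABA itself. CYP707A3 and CYP707A2, which encode ABA-degrading hydroxylases, had log2 fold changes of 2.47 (limma adjusted p = 0.000234) and 1.02 (adjusted p = 0.00647). BG1, a glucosidase that frees ABA from its glucose ester, had 0.64 (adjusted p = 0.00752). ABA1, the zeaxanthin epoxidase gene, had 0.60 (adjusted p = 0.0259), and its call ended in 4 leave-one-out fits, those without mutant replicate 1 (0.0975), mutant replicate 3 (0.103), wild-type replicate 2 (0.0997) and wild-type replicate 3 (0.0967). ABA2 had 0.51 (adjusted p = 0.0509, and 0.0239 to 0.162 with an array left out) and AAO3 -0.41 (adjusted p = 0.233). NCED3, a main control point of ABA synthesis, had no Present call. The hydroxylase gene CYP707A1 had none either, and CYP707A4 and ABA3 had 1 each, so these were not tested.

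The probe sets whose log2 signals over the 6 arrays followed HAB1 most closely were AT5G52780, titled as an expressed protein (Pearson r = 0.9978), the sulfotransferase family gene AT2G03750 (0.9971) and the multicopper oxidase gene LPR1 (0.9950). They are a description, with no test: the points share the same 6 arrays in 2 separated groups, and 208 probe sets had r above 0.95 with HAB1. AT5G52780 read 3522, 3203 and 3306 in the mutant and 2980, 2420 and 2095 in wild type, the same order of arrays as HAB1 within wild type.

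**Figure D5:**
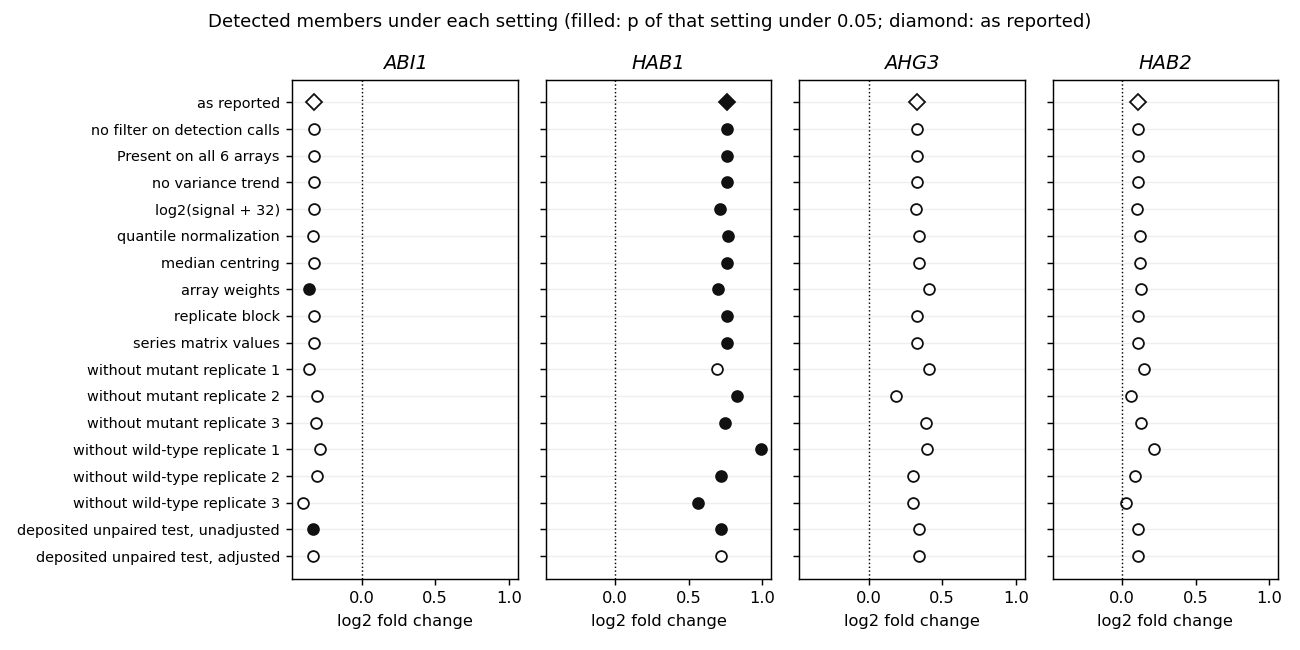
Log2 fold change (essp3 minus wild type) of the 4 detected clade A genes as reported (diamond) and under each other setting (circles), filled where the p of that setting was under 0.05. HAB1 stays between 0.56 and 0.99, and ABI1 between -0.40 and -0.28, with no change of direction for any of the 4 genes.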

How the data were processed

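Total RNA of 6 leaf samples was hybridised to Affymetrix ATH1 arrays. The deposited table holds MAS5 signal intensities scaled per array to a common mean, per the file headers, with a detection call per array. Its ratio (mutant mean over wild-type mean) and its unadjusted p-value from an unpaired test were made by the authors, per the file headers. The values of the series matrix were identical. The MAS5 settings, the probe annotation release and the genome build were not given in the sources used here, so no coordinates are printed. Gene names came from the deposited locus codes, of which 22091 of 22591 matched RefSeq's TAIR10.1 gene table.

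Signals were taken as log2 (9 signals of 0 were set to the lowest signal above 0 on their array) and fitted with limma 3.58.1 in R 4.3.3 (lmFit, eBayes with intensity trend), two-sided, on probe sets Present on at least 3 of 6 arrays. The code was tested on simulated data. Intervals are 95% from the moderated fit. Precision is limited by how few arrays there are.

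The 9 genes and all lists were chosen with earlier results of these data known. Named genes are all members; from each pathway list up to 4 called and 2 uncalled genes of smallest adjusted p; the 3 largest rises and falls among other PP2C genes; and the 3 probe sets most correlated with the member of smallest adjusted p. From the other PP2C genes, 1 ribosomal protein gene whose title matched by letters only was set aside. Alternatives were the detection filter, variance trend, an offset of 32, quantile normalization, median centring, array weights, a replicate block, the series matrix values, each array left out and the deposited test.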

Additional observations from a re-analysis of the deposited data

How the results depend on the processing

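No tested clade A gene and no gene named by the rule changed direction under the alternatives run. ABI2, AHG1 and the HAI genes had 1 alternative only (no detection filter), and markers and genes named outside the rule were not rerun. Of the 17 alternatives counted next, 1 used the series matrix values, which were identical, so its outcome was fixed in advance. Another took the deposited values without adjustment, so it did not apply the adjusted threshold. HAB1 was counted as past the threshold in both of these settings, and ABI1 only in the unadjusted setting. HAB1 was past the threshold in 15 of 17 alternatives (log2 fold change 0.56 to 0.99, p 0.000943 to 0.118), ABI1 in 2 of 17 (-0.40 to -0.28, p 0.0178 to 0.197), HAB2 and AHG3 in none (p 0.426 to 0.924 and 0.0597 to 0.489). The count of called clade A members was 1 as reported, 0 to 1 with an array left out, 2 with array weights, 2 with the deposited unadjusted p and 0 with that p adjusted (HAB1 adjusted p = 0.118). The deposited test after adjustment called 1694 probe sets in place of 3865, and 1 receptor, 2 SnRK2, 3 ABA responsive, 1 channel or oxidase, 1 synthesis or breakdown and 2 other PP2C genes. Falls among the ABA responsive genes went from 3 to 1 without mutant replicate 2, mutant replicate 3 or wild-type replicate 2. SnRK2 calls were 2 without the variance trend and 2 to 4 with an array left out. ABF-type calls were 0 to 1 with an array left out and 1 by the deposited unadjusted p. Synthesis and breakdown calls were 2 with probe sets Present on all 6 arrays, where 3 were tested. Other PP2C calls were 11 with array weights and 12 by the deposited unadjusted p. The cause of these shifts was not tested. Same-numbered arrays shared little (correlation of deviations 0.0198 to 0.0322), though each was highest with its own number. The reported fit was unpaired, and values this small do not settle whether the numbers pair the samples. The replicate block gave 3737 calls in all, 1 ABF-type call (ABF1) and no call for AT2G30020 (adjusted p = 0.0523). With 0 or 1 Present call, ABI2, AHG1 and the HAI genes have no level here.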

Other observations

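PYL3, the receptor gene without a Present call, read 47.2, 69.4 and 66.5 on mutant arrays and 9.15, 9.51 and 36.2 on wild-type arrays, so its groups did not overlap below detection. The bZIP gene DPBF2 read 34.8, 40.5 and 45.6 against 9.15, 1.46 and 7.04, and EM1, a late embryogenesis gene of the ABA response list, 27.6, 31.4 and 70.2 against 6.53, 3.66 and 4.02. Other undetected genes lay apart with the mutant below. Of the other PP2C genes, AT4G32950 read 85.7, 71.9 and 95.7 in the mutant against 110, 152 and 147. AT1G07160 read 5.08, 11.6 and 12.8 against 15.0, 16.1 and 13.1. How many undetected probe sets have groups apart was not counted, so these values stand beside no background share. All of these genes were chosen after their values were seen, were not tested, and have no level without a Present call.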
